A study of Mus musculus with 25 samples.

Results

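The nuclear genes of the mitochondrial respiratory chain were followed in the perigonadal white adipose tissue (pgWAT), the fat around the epididymis, of refed male mice. They were taken by name from the gene names of the array. The names had to begin with Nduf followed by a, b, c, s or v, with Uqcr, with Atp5 or with Cox and a digit from 4 to 8, or to be Sdha, Sdhb, Sdhc or Sdhd. Cox7a1 and Cox8b, the forms of muscle and brown fat, were left out. The rule gave 90 genes, and 89 of them had a probe in the deposited table, out of 26420 genes with a probe. They comprised 38 genes of complex I, 7 complex I assembly factors (Ndufaf1 to Ndufaf7), 4 of complex II, 8 of complex III, 15 of complex IV, 15 of complex V (ATP synthase) and 3 other names that the patterns caught (Atp5c1-ps, Atp5s and Atp5sl). Cox8c, a complex IV form of the testis, was the gene without a value, and its spot was well above background on 4 of 25 arrays. Cox5b is not a gene name on this array and was not analysed here. Each gene was read from 1 probe, the one with the highest mean over the 25 arrays.

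ChREBP is the glucose-activated transcription factor encoded by Mlxipl, and ChREBPβ is its shorter isoform, transcribed from an alternative promoter and exon 1b. The study asked which effects of ChREBP need the β isoform. All mice were C57BL6/J males, fasted for 24 h and then refed for 18 h with food and drinking water that held 20% glucose, which raises ChREBP activity. One line carried a germline CRISPR deletion at exon 1b, so that all tissues lacked ChREBPβ and kept ChREBPα (ChREBPbeta_WT in the labels, here ChREBPβ WT, 7 arrays, and ChREBPbeta_KO, here ChREBPβ KO, 6 arrays). The other line was null for Mlxipl in all tissues and lacked both isoforms (ChREBPtotal_WT, here total ChREBP WT, 7 arrays, and ChREBPtotal_KO, here total ChREBP KO, 5 arrays). Each array held the RNA of 1 mouse, and ages are not given in the sources used here. The wild types belonged to different lines, so a difference between them cannot be told apart from one of colony or housing.

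Complex I takes electrons from NADH and complex II from succinate, complex III passes them to cytochrome c and complex IV to oxygen. The protons pumped by complexes I, III and IV drive ATP synthase, complex V. Nearly all subunits are encoded in the nucleus, and a few central ones of complexes I, III, IV and V in mitochondrial DNA. White fat holds fewer mitochondria than brown fat, and uses them to make citrate for fatty acid synthesis as well as to make ATP. The factors NRF1, GABPA (an ETS factor), YY1 and the ERR receptors, with the coactivators Ppargc1a and Ppargc1b, are known to act on promoters of these genes.

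Promoters of some genes called in 1 of the comparisons are printed first, as examples of starts that hold a motif. All of the printed ones hold a match, so they do not stand for the genes that differed most. Ndufb5, Ndufa12 and Ndufv3 had larger differences than some of them and no match in their windows. Each run is 150 bases before to 30 bases after the start of the gene in RefSeq annotation of GRCm38.p6, 5′ to 3′ on the gene's strand, and capitals mark a motif match on either strand. The first 4 genes differed between the wild types, the next 3 were higher in total ChREBP KO than in total ChREBP WT, and Ndufa6 was lower.
Ndufa11, chr17:56717612-56717791, plus strand: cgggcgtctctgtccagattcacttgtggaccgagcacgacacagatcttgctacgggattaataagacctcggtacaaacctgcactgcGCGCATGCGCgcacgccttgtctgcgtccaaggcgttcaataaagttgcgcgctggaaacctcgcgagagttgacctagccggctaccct
Sdhd, chr9:50603820-50603999, minus strand: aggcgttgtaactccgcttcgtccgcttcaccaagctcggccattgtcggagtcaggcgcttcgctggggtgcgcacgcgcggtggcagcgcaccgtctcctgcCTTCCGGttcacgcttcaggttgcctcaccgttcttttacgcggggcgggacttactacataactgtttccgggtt
Cox6b1, chr7:30626085-30626264, minus strand: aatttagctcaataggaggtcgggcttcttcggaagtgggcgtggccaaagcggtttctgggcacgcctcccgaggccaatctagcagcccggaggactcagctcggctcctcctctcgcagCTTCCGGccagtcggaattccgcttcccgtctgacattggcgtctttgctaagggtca
Atp5g3, chr2:73911297-73911476, minus strand: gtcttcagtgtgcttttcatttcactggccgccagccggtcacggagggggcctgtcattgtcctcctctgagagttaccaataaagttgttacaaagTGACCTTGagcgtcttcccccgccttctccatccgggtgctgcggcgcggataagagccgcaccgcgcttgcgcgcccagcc
Ndufb8, chr19:44555413-44555592, minus strand: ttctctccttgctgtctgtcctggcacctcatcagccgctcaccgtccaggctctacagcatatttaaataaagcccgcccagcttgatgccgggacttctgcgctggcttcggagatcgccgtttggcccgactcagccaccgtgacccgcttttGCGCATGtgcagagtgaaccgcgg
Sdhb, chr4:140961121-140961300, plus strand: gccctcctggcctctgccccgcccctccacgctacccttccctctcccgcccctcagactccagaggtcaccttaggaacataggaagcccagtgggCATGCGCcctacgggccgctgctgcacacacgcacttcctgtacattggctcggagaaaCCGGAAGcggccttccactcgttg
Atp5k, chr5:108434370-108434549, minus strand: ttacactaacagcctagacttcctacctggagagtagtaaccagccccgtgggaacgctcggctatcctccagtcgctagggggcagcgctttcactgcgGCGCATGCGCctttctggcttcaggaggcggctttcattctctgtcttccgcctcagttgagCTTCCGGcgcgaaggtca
Ndufa6, chr15:82354262-82354441, minus strand: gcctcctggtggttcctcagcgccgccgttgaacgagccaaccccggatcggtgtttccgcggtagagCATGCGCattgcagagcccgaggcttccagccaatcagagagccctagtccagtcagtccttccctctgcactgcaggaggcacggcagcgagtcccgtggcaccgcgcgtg
In Ndufa11 the capitals are an NRF1 site, GCGCATGCG read on both strands. In Sdhd and Cox6b1 they are the ETS motif CCGGAAG on the opposite strand, and in Atp5g3 the ERR motif CAAGGTCA on the opposite strand. Atp5k holds the NRF1 site and an ETS motif, Sdhb the shorter NRF1 letters GCGCATG and an ETS motif, and Ndufb8 and Ndufa6 the shorter NRF1 letters alone. These motifs were searched in windows of 250 bases before to 50 after each start, on both strands, and GCGCATG is part of the longer NRF1 site. The members had 79 such windows, from 73 genes, among 32851 windows of all genes. The letters GCGCATG stood in 17.7% of member windows and 3.91% of all windows, and GCGCATGCG in 12.7% and 1.75%. The ETS motif stood in 21.5% of member windows and 8.86% of all, the YY1 motif AAGATGGC in 15.2% and 2.75%, and the ERR motif in 5.06% and 1.56%. The E-box CACGTG, the core of the element that ChREBP and many other factors bind, stood in 11.4% and 7.15%. In these windows, longer than the printed runs, Ndufb8 also held a YY1 match, Sdhd an ERR match and Atp5g3 an E-box. A match to letters is a description and says nothing of binding in these samples.

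The arrays were of like quality, with a median raw intensity of 84 to 127, a local background of 15 to 22, 73.0% to 77.9% of spots well above background and 0 saturated spots. Values are log2 levels after quantile normalisation, and the number of arrays limits the precision. The brightest probe of Mlxipl read 14.07 to 14.29 (median 14.23) in total ChREBP KO and 15.74 to 16.24 (median 16.00) in total ChREBP WT, so that it fell by 1.77 (limma adjusted p = 1.11e-08). In ChREBPβ KO it read 14.02 to 14.64 (median 14.34) against 14.72 to 15.46 (median 15.06), lower on every KO array, a difference of -0.74 without passing the adjustment (adjusted p = 0.116). The other 2 Mlxipl probes differed less. Of these, 1 fell by 0.66 in total ChREBP KO (adjusted p = 0.00103) and the other differed by 0.08 (adjusted p = 0.695), and in ChREBPβ KO they differed by -0.47 and -0.06 (adjusted p = 0.255 and 0.896). Which exons the probes read was not analysed here. The tissue label fitted the markers of fat, with a mean of 16.03 to 16.47 for 10 adipocyte genes on all arrays. RNA of other organs was present, most of all liver. The mean of 6 liver markers was 13.05 to 16.66 on the ChREBPβ WT arrays, 11.48 to 16.09 in ChREBPβ KO, 7.46 to 13.77 in total ChREBP WT and 7.01 to 8.31 in total ChREBP KO.

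The mean over all subunits of a complex gave the first view. For the 38 complex I genes this mean was 14.74 to 14.91 on the ChREBPβ WT arrays, 14.78 to 14.87 in ChREBPβ KO, 14.97 to 15.10 in total ChREBP WT and 15.07 to 15.17 in total ChREBP KO. Every array of the total ChREBP line thus lay above every array of the ChREBPβ line. Complex II lay at 14.43 to 14.61 in ChREBPβ WT, 14.39 to 14.61 in ChREBPβ KO, 14.66 to 14.86 in total ChREBP WT and 14.76 to 14.97 in total ChREBP KO. Complex III lay at 15.39 to 15.57, 15.39 to 15.54, 15.64 to 15.81 and 15.75 to 15.91 in the same order. For both complexes the lines did not overlap, while the genotypes within a line did. Complex IV lay at 13.19 to 13.37 in ChREBPβ WT, 13.14 to 13.36 in ChREBPβ KO, 13.34 to 13.46 in total ChREBP WT and 13.48 to 13.52 in total ChREBP KO. Complex V lay at 15.66 to 15.86, 15.68 to 15.85, 15.87 to 15.99 and 16.02 to 16.08. For complexes IV and V every total ChREBP KO array was above every total ChREBP WT array, and for complex IV the wild types overlapped. Over all 89 members the means were 14.24 to 14.41 in ChREBPβ WT, 14.27 to 14.38 in ChREBPβ KO, 14.48 to 14.60 in total ChREBP WT and 14.58 to 14.66 in total ChREBP KO.

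**Figure D1:**
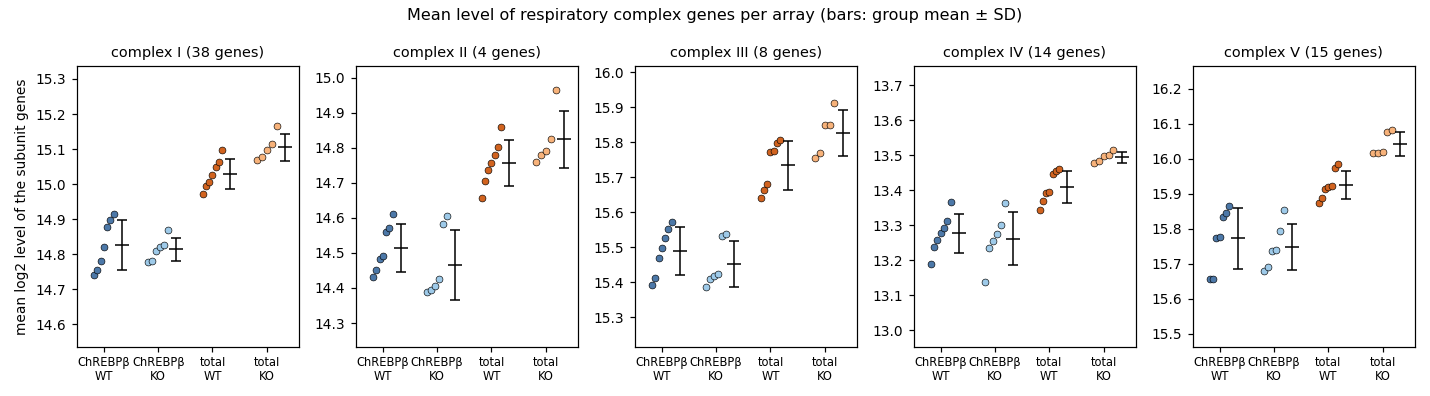
Mean log2 level (y axis) of the subunit genes of each complex on every array, in panels by complex, with 1 point per array in 4 groups and bars for the group mean ± SD. The panels share 1 span and not 1 position, so differences and not heights may be compared between panels. In complex V the 5 total ChREBP KO arrays lie at 16.02 to 16.08 and the 7 total ChREBP WT arrays at 15.87 to 15.99.

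The differences over all members were also read within the wash batches named in the labels, each of which held 1 or 2 arrays of each of the 4 groups. Over all members, total ChREBP WT minus ChREBPβ WT was 0.22, 0.16, 0.19 and 0.18 in the 4 batches. Total ChREBP KO minus total ChREBP WT was 0.08, 0.04, 0.10 and 0.06, higher in 4 of 4 batches. Among complexes I to V, complex II alone had a batch below 0, at -0.01 in batch 2, which held 1 array of each group. The complex I assembly factors were at -0.07 in batch 1. ChREBPβ KO minus ChREBPβ WT was 0.04, -0.14, -0.00 and -0.04, with no common sign. In bulk tissue, fewer cells of a type and less RNA per cell cannot be told apart.

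The comparison of the wild types asked how far the lines differ apart from the knockouts. Mlxipl itself differed between them. Its brightest probe was higher by 0.91 in total ChREBP WT (limma adjusted p = 3.99e-05), with every array above every ChREBPβ WT array. The other 2 probes differed by 0.50 and -0.07 (adjusted p = 0.003 and 0.547). The part of Mlxipl in the member differences was not tested. With limma over all probes and wash batch as a term, 59 of 89 members were higher in total ChREBP WT (66.3%) and 0 were lower, where 13.5% of all genes were higher and 8.51% lower at an adjusted p under 0.05. At an unadjusted p under 0.05, 68 members were higher and 0 lower, where 5526 of all 26420 genes were higher and 3449 lower. The median difference was 0.19 log2 units over the members and 0.04 over all genes. In 34 of 89 members every total ChREBP WT array lay above every ChREBPβ WT array, against 3.33% of all genes. The members were bright, with 71 of the 89 among the brightest 10% of genes, and of those 21.1% were higher, with a median difference of 0.03. When the processed signal was scaled to its 75th percentile in place of quantile normalisation, 77 members were called, all higher, with a median of 0.34 for the members and 0.05 for all genes. Counts fell under 2 alternatives added after the data were seen, with medians of 0.21 in both. With the mean liver marker level as a covariate 22 members were called, and 13 on the 16 arrays with low kidney, epididymis and testis markers, all higher.

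**Figure D2:**
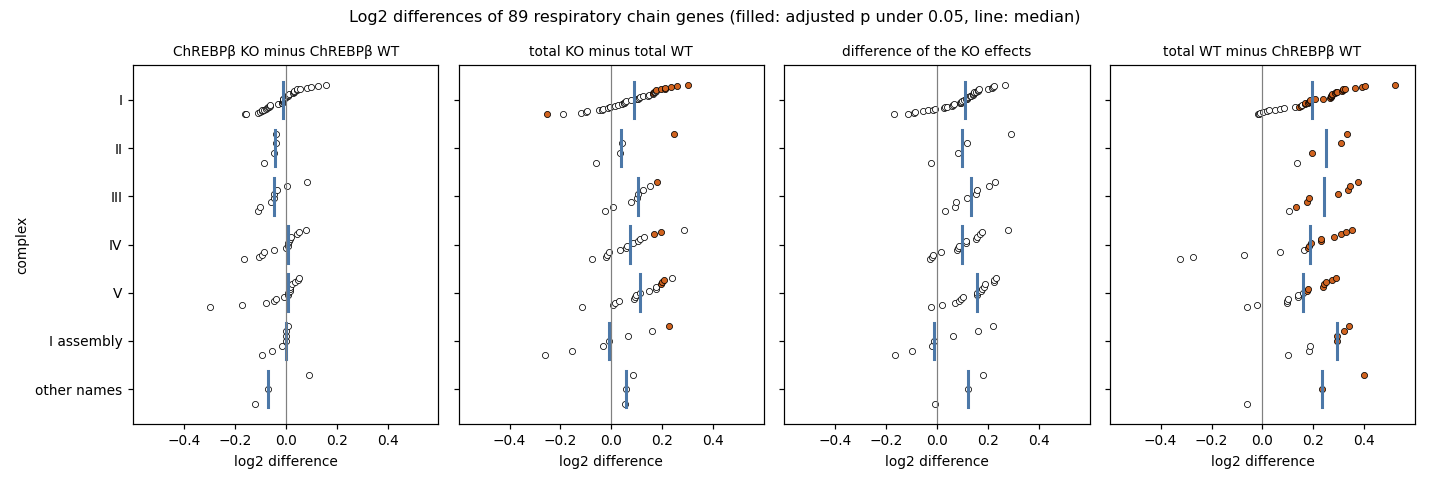
Log2 difference (x axis) of each of the 89 members in 4 comparisons (panels), in rows by complex, with filled points for an adjusted p under 0.05 and a vertical line for the median of the row. In the last panel 59 points are filled, all to the right of 0, and in the panels of ChREBPβ KO and of the difference of effects 0 are filled.

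Complex I had 27 of 38 genes higher in total ChREBP WT, with a median difference of 0.20. Its core subunits, which carry the NADH site, the iron-sulphur clusters and the ubiquinone site, were called higher for all 6 of the genes reported here. Ndufs1, the largest of them, read 14.25 to 14.55 (median 14.40) in ChREBPβ WT and 14.65 to 14.76 (median 14.71) in total ChREBP WT. The groups did not overlap, and the difference was 0.32 ± 0.053 log2 units (SE; limma adjusted p = 0.000285). Ndufv1, which binds NADH, rose by 0.18 (adjusted p = 0.0335), with overlap between 14.87 to 15.13 (median 15.04) and 15.03 to 15.34 (median 15.20). Its partner Ndufv2 rose by 0.31 (adjusted p = 0.000755) without overlap. Ndufs7, at the ubiquinone site, rose by 0.27 (adjusted p = 0.00272), and Ndufs3 and Ndufs8 by 0.15 and 0.27 (adjusted p = 0.00998 and 0.00545).

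Among the accessory subunits, Ndufa11 of the membrane arm had the largest difference of all members. Its probe (chr17:56857241-56857300 in mm9, the build of the array design) read 11.76 to 12.22 (median 12.11) on the ChREBPβ WT arrays and 12.41 to 12.75 (median 12.58) on the total ChREBP WT arrays. No array of one group reached the other, and the difference was 0.52 ± 0.083 (adjusted p = 0.000176), a ratio of 1.44. Ndufb5 read 14.04 to 14.60 (median 14.46) and 14.69 to 14.98 (median 14.74), a difference of 0.40 ± 0.079 (adjusted p = 0.00103). For Ndufa12, of the matrix arm, the levels were 14.63 to 15.14 (median 14.90) and 15.22 to 15.33 (median 15.26), and the difference was 0.39 ± 0.070 (adjusted p = 0.000475). Both genes were without overlap between the wild types. In the matrix arm 12 of 16 genes were higher (median 0.27) and in the membrane arm 13 of 19 (median 0.18), a grouping made after the values were seen and not tested. Ndufv3 and Ndufa2 of the matrix arm differed by -0.02 and -0.01 and were not called, and their difference was 0.18 and 0.17 under the 75th percentile scaling.

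Of the 7 assembly factors, which help to build complex I and are not part of it, 4 were higher, with a median of 0.29. Ndufaf5, which hydroxylates Ndufs7, read 10.06 to 10.25 (median 10.19) in ChREBPβ WT and 10.33 to 10.60 (median 10.51) in total ChREBP WT. The groups stood apart and differed by 0.34 ± 0.044 (adjusted p = 2.69e-05). Ndufaf4 rose by 0.32 and Ndufaf2 by 0.29 (adjusted p = 0.00579 and 0.000235), also without overlap.

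Complex II links the citrate cycle to the chain, and 3 of its 4 genes were higher, with a median of 0.25. Sdhd, 1 of its membrane anchors, read 14.75 to 14.95 (median 14.85) and 15.04 to 15.24 (median 15.19) in ChREBPβ WT and total ChREBP WT. The difference of 0.31 ± 0.059 (adjusted p = 0.000816) came without overlap. The other anchor, Sdhc, rose by 0.20 (adjusted p = 0.00737) and the flavoprotein Sdha by 0.33 (adjusted p = 0.00297). The iron-sulphur subunit Sdhb differed by 0.14 and was not called (adjusted p = 0.111).

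Complex III had 7 of 8 genes higher, with a median of 0.24. Its core protein Uqcrc2 read 14.42 to 14.72 (median 14.66) in ChREBPβ WT and 14.89 to 15.03 (median 15.01) in total ChREBP WT, and no arrays overlapped. The difference was 0.38 ± 0.065 (adjusted p = 0.000373). The other core protein, Uqcrc1, rose by 0.34 (adjusted p = 0.000395) and the Rieske protein Uqcrfs1, which carries the iron-sulphur cluster, by 0.34 (adjusted p = 0.0141). Uqcrb was the 1 member whose called probes went opposite ways. Its brightest probe and a second bright probe rose by 0.30 and 0.38 (adjusted p = 0.0018 and 0.000265), and a dim probe near a level of 5.99 fell by 0.38 (adjusted p = 0.0115).

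In complex IV 9 of 14 genes were higher, with a median of 0.19. Cox7b read 14.43 to 14.61 (median 14.48) in ChREBPβ WT and 14.62 to 15.06 (median 14.84) in total ChREBP WT, a difference of 0.35 ± 0.070 (adjusted p = 0.00123) without overlap. Cox6b1 rose by 0.33, Cox5a by 0.31 and Cox4i1 by 0.23 (adjusted p = 0.00134, 0.000629 and 0.000652), each without overlap. The common forms Cox6a1, Cox7a2 and Cox8a rose by 0.18, 0.19 and 0.18 (adjusted p = 0.0117, 0.0043 and 0.0176). Cox4i2, the form known from lung and low oxygen, rose by 0.23 (adjusted p = 0.0094). The muscle form Cox6a2 and the testis forms Cox6b2 and Cox7b2 were dim and not called, with differences of -0.32, 0.07 and -0.27. Cox7a2l, known for its part in joining complexes III and IV, differed by -0.07 and was not called (adjusted p = 0.452). Ndufa4, named for complex I and since placed in complex IV, rose by 0.18 (adjusted p = 0.0045), and its relative Ndufa4l2, a gene induced by low oxygen, differed by 0.15 (adjusted p = 0.339). With both genes moved, complex IV had 10 of 16 higher and complex I 26 of 36.

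Complex V had the lowest share of calls among the complexes, 7 of 15, with a median of 0.16. The gene for the membrane ring subunit Atp5g3 read 16.35 to 16.77 (median 16.57) and 16.77 to 16.94 (median 16.86), with a difference of 0.29 ± 0.058 (adjusted p = 0.0012) and no overlap. The stalk subunits Atp5f1 and Atp5o rose by 0.27 and 0.25 (adjusted p = 0.000667 and 0.00186). Of the catalytic head, Atp5b rose by 0.24 (adjusted p = 0.00475), and Atp5a1 and Atp5c1 differed by 0.10 and 0.14 and were not called (adjusted p = 0.107 and 0.156). Atp5c1-ps, named as a pseudogene of Atp5c1, rose by 0.40 (adjusted p = 0.00882), and its probe may also bind the transcript of that gene. The gene Atp5s (now Dmac2l) rose by 0.23 (adjusted p = 0.0213).

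Total ChREBP KO minus total ChREBP WT asked what the loss of both isoforms does. It shares the total ChREBP WT arrays with the comparison of wild types. Here 17 of 89 members were higher in the knockout (19.1%) and 1 was lower, where 5.62% of all genes were higher and 3.63% lower. The median difference was 0.08 over the members and 0.02 over all genes, and among the brightest 10% of genes 11.0% were higher, with a median of 0.04. In 24 of 89 members every KO array lay above every WT array, against 4.31% of all genes, and in 1 every KO array lay below. The differences were small, and the largest was a ratio of 1.23. Scaling to the 75th percentile gave 3 calls, 2 of them among the 18 above, and a median of 0.01 for the members and 0.01 for all genes. Without total ChREBP KO replicate 1, 11 members were called, all higher. The liver covariate gave 4 calls and the arrays low in other organ markers 3, with medians of 0.09 and 0.11. The mean of the 10 adipocyte genes was 16.41 to 16.46 on the KO arrays and 16.03 to 16.34 on the WT arrays, without overlap, and its part in the member differences was not tested.

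**Figure D3:**
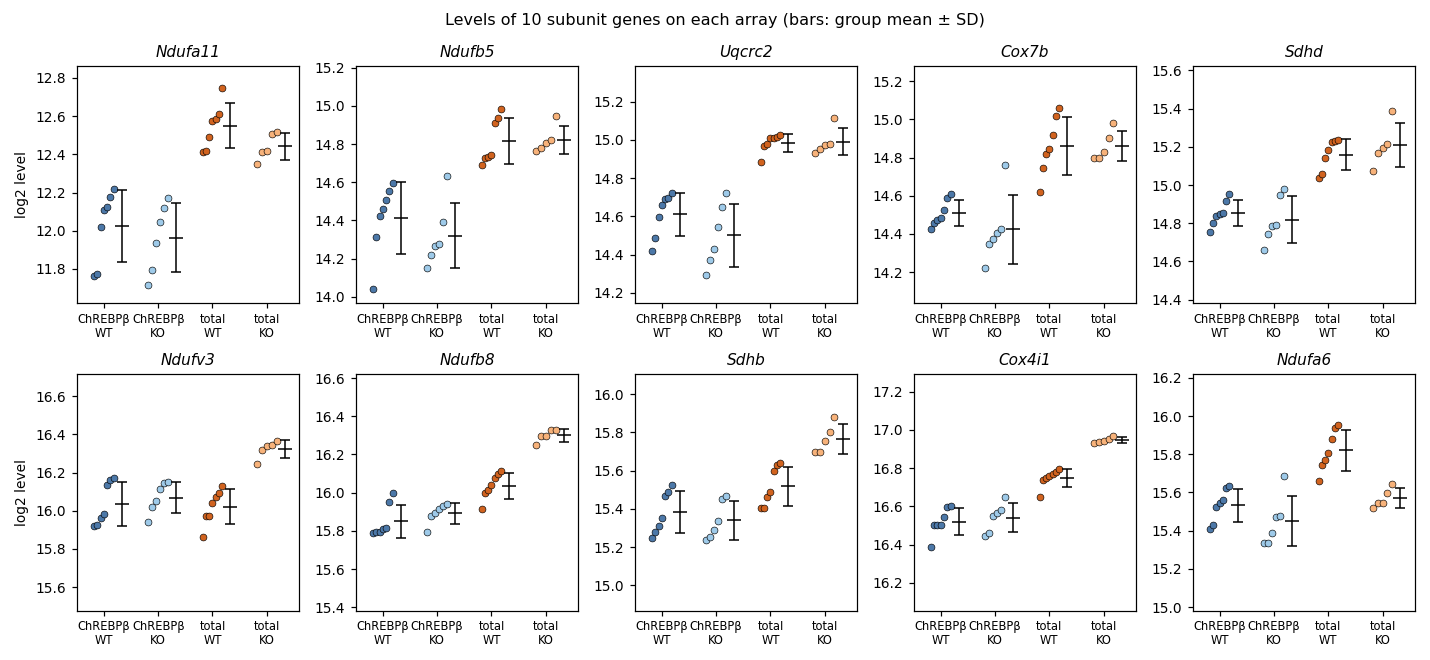
Log2 level (y axis) of 10 member genes on every array, with 1 point per array in 4 groups and bars for the group mean ± SD, all panels with the same span. The upper row shows genes called between the wild types, all of them higher in the total ChREBP line. The lower row shows genes called between total ChREBP KO and total ChREBP WT, of which Ndufa6 alone was lower in the knockout.

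Complex I held 9 of the 17 genes that rose, of 38 measured, with a median of 0.09. Ndufv3, an accessory subunit of the matrix arm, read 15.86 to 16.13 (median 16.04) in total ChREBP WT and 16.24, 16.32, 16.34, 16.34 and 16.36 on the 5 KO arrays. All KO arrays were above all WT arrays, by 0.30 ± 0.057 on average (adjusted p = 0.00135). Ndufb8, of the membrane arm, read 15.91 to 16.11 (median 16.04) in WT and 16.25, 16.29, 16.30, 16.33 and 16.33 in KO. These groups were also apart, and the difference was 0.26 ± 0.049 (adjusted p = 0.00119). Of the 10 called members with several probes, Ndufb8 was the 1 with a second called probe, which rose by 0.37 (adjusted p = 0.0158). Ndufa2 read 15.55 to 15.72 (median 15.70) in WT and 15.83, 15.88, 15.91, 15.91 and 15.93 in KO, a rise of 0.21 ± 0.042 (adjusted p = 0.0019). Ndufs5, at the intermembrane face, read 15.63 to 15.76 (median 15.71) in WT and 15.86, 15.87, 15.90, 15.93 and 15.94 in KO, a rise of 0.20 ± 0.045 (adjusted p = 0.00725). The others that rose were Ndufb3, Ndufb9, Ndufb4, Ndufab1 (the mitochondrial acyl carrier protein) and Ndufa13, by 0.16 to 0.23.

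The core subunits of complex I were not among them. Of the same 6, 0 were called by limma, 1 passed an unadjusted threshold of 0.05 (Ndufv1, with a difference of 0.15), and their median was -0.02. Among all genes 5.62% were called higher and among the members 19.1%, so 0 of 6 does not set the core apart. Ndufs1 read 14.56, 14.62, 14.63, 14.66 and 14.79 on the KO arrays and 14.65 to 14.76 (median 14.71) on the WT arrays, and differed by -0.05 (adjusted p = 0.736). By position, 6 of 19 genes of the membrane arm rose (median 0.15), and in the matrix arm 2 of 16 rose and 1 fell (median 0.03). This split was seen in the values first and was not tested. Ndufa6, a small matrix arm subunit that binds the acyl carrier protein, was the 1 member that fell. It read 15.66 to 15.95 (median 15.81) in WT and 15.52, 15.54, 15.54, 15.60 and 15.65 in KO, with all KO arrays below all WT arrays. Its level fell by 0.25 ± 0.067 (adjusted p = 0.018), and without total ChREBP KO replicate 1 it was no longer called. Of the assembly factors, Ndufaf7, a methyltransferase of the matrix, rose by 0.23 (adjusted p = 0.0143), and Ndufaf4 differed by -0.26 and was not called (adjusted p = 0.0659).

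In complex II Sdhb alone was called. It read 15.40 to 15.64 (median 15.49) in total ChREBP WT and 15.70, 15.70, 15.76, 15.80 and 15.88 in KO, apart in all arrays, a rise of 0.24 ± 0.066 (adjusted p = 0.0221). Sdha, Sdhc and Sdhd differed by 0.03, -0.06 and 0.04, with adjusted p-values of 0.9, 0.636 and 0.809. In complex III the small subunit Uqcr10 rose, from 16.27 to 16.37 (median 16.31) in WT to 16.42, 16.47, 16.48, 16.55 and 16.55 in KO. Its difference was 0.18 ± 0.052 (adjusted p = 0.0305), without overlap. The core proteins Uqcrc1 and Uqcrc2 differed by -0.02 and 0.01 (adjusted p = 0.906 and 0.981).

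Complex IV had 2 of 14 genes higher. Cox4i1, a subunit that takes part in regulation of the enzyme by ATP, read 16.65 to 16.79 (median 16.76) in WT and 16.93, 16.93, 16.94, 16.95 and 16.97 in KO. The KO arrays spanned a narrow range above all WT arrays, with a difference of 0.19 ± 0.047 (adjusted p = 0.0101). Cox7a2 read 15.51 to 15.67 (median 15.58) and 15.70, 15.70, 15.74, 15.75 and 15.90, a rise of 0.17 ± 0.049 (adjusted p = 0.0341). Cox5a, Cox7b and Cox6b1 differed by -0.02, -0.02 and 0.11 and were not called. The largest difference of the class, 0.29 for the dim Cox6a2, had an adjusted p of 0.402.

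In complex V 3 of 15 genes rose and 14 of 15 differences were above 0, with a median of 0.11. Atp5e, the small ε subunit of the head, read 15.75 to 15.93 (median 15.81) in WT and 15.99, 16.02, 16.04, 16.07 and 16.08 in KO, a rise of 0.20 ± 0.048 (adjusted p = 0.0102) without overlap. Atp5h of the stalk read 16.02 to 16.19 (median 16.17) and 16.25, 16.29, 16.33, 16.35 and 16.40, a rise of 0.19 ± 0.053 (adjusted p = 0.0237). Atp5k, of the membrane part, rose by 0.21 ± 0.055 (adjusted p = 0.0219), with overlap between 15.77 to 16.08 (median 15.95) and 16.01, 16.11, 16.14, 16.23 and 16.25. Atp5c1 and Atp5b had all KO arrays above all WT arrays, by 0.24 and 0.17, and did not pass the adjustment (adjusted p = 0.0517 and 0.0938). Atp5a1 differed by 0.01 (adjusted p = 0.929).

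Over the 18 subunits listed as core or catalytic, from all complexes together, 2 rose in total ChREBP KO (Sdhb and Cox4i1), with a median of 0.02. In the comparison of wild types 15 of these 18 were higher (83.3%), against 13.5% of all genes, with a median of 0.27. Both comparisons use the total ChREBP WT arrays, with opposite sign, so the counts are not independent.

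ChREBPβ KO minus ChREBPβ WT asked what the loss of the β isoform alone does. With limma, 0 of 89 members were called and 0% of all genes were called at an adjusted p under 0.05. At an unadjusted p under 0.05, 2 members were higher and 5 lower, 7 of 89, where 9.45% of all genes passed either way. The median difference was -0.01 over the members and 0.02 over all genes. The class medians lay near 0 in the plot of member differences. Atp5g1, 1 of the genes for the ring subunit of ATP synthase, had the smallest p. It read 14.44 to 14.66 (median 14.56) in ChREBPβ WT and 13.94 to 14.65 (median 14.21) in ChREBPβ KO, with overlap, a difference of -0.30 ± 0.097 (unadjusted p = 0.00573 in limma, adjusted p = 0.384). The other genes for the same ring protein are read by their own probes, and Atp5g3 differed by 0.01. Atp5d, the δ subunit, read 14.08 to 14.42 (median 14.29) and 13.94 to 14.36 (median 14.11), a difference of -0.17 ± 0.062 (adjusted p = 0.412). Ndufs5 read 15.53 to 15.72 (median 15.64) and 15.65 to 15.83 (median 15.70), a difference of 0.10 ± 0.043 (adjusted p = 0.496). Among these 18 core or catalytic subunits, the differences ran from -0.16 in Ndufs8 (adjusted p = 0.511) to 0.04 in Atp5a1 (adjusted p = 0.864). The standard error of a member's difference was 0.06 in the median, which bounds what 6 and 7 arrays could show.

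Whether the knockout effects differ between the lines was tested by the difference of the effects. By limma, 0 of 89 members were called, where 3.47% of all genes were called higher or lower. At an unadjusted p under 0.05, 23 members had the higher effect in the total ChREBP line and 0 the lower, and 13.3% of all genes passed either way. The median difference of effects was 0.11 over the members and 0.00 over all genes. The members with the smallest p were Ndufa2 (0.20 ± 0.057, adjusted p = 0.0621), Ndufv3 (0.27 ± 0.079, adjusted p = 0.0734) and Ndufb8 (0.22 ± 0.067, adjusted p = 0.0935). Thus no member was shown to respond differently to the knockouts. The 17 genes that rose in total ChREBP KO and the absence of calls in ChREBPβ KO are not, by themselves, a difference between the knockouts.

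Other genes of the same organelle were read from lists of named genes. Subunits encoded in mitochondrial DNA were measured by 11 probes. In total ChREBP KO 6 of the 11 rose and 0 fell, with a median of 0.27, where 5.62% of all genes rose. Their mean was 15.62 to 15.84 on the total ChREBP WT arrays and 15.76 to 16.18 on the KO arrays, with overlap. ND4 read 16.32 to 16.51 (median 16.42) in WT and 16.67 to 16.97 (median 16.70) in KO, a rise of 0.34 ± 0.066 (adjusted p = 0.0017). CYTB, the mitochondrial subunit of complex III, read 17.51 to 17.69 (median 17.60) and 17.77 to 18.00 (median 17.81), a rise of 0.26 ± 0.058 (adjusted p = 0.00654). ND2, ND4L, ND5 and COX1, the catalytic subunit of complex IV, rose by 0.35, 0.37, 0.31 and 0.21 (adjusted p = 0.023, 0.0364, 0.0364 and 0.0482). Between the wild types 1 of the 11 was higher (ND1, 0.44, adjusted p = 0.00768) and the median was -0.03. There 59 of 89 nuclear members and 13.5% of all genes were higher. In ChREBPβ KO 0 of the 11 were called by limma, and 1 had an unadjusted p under 0.05.

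Of the 13 citrate cycle enzymes, 11 were higher in the wild types of the total ChREBP line (median 0.31) and 0 were called in total ChREBP KO by limma, with 3 higher at an unadjusted p under 0.05 (median 0.03). Of all genes, 13.5% were higher and 8.51% lower between the wild types, and 5.62% and 3.63% in total ChREBP KO. Of 76 mitochondrial ribosomal proteins, 50 were higher between the wild types (median 0.18). In total ChREBP KO 2 of them rose and 1 fell (median 0.02), both below the shares of all genes. For the 25 import proteins the counts were 12 higher between the wild types (median 0.15), and 1 higher and 2 lower in total ChREBP KO (median 0.05). Assembly factors outside the naming rule had 20 of 39 higher between the wild types (median 0.19), and 4 higher and 2 lower in total ChREBP KO (median 0.05). Among 11 electron carriers, 7 were higher between the wild types (median 0.29). In total ChREBP KO both subunits of the electron transfer flavoprotein, which brings electrons from fatty acid oxidation, rose (Etfa by 0.28 and Etfb by 0.24, adjusted p = 0.000257 and 0.00752). Gpd2, the mitochondrial glycerol 3-phosphate dehydrogenase, fell by 2.79 ± 0.159 (adjusted p = 1.39e-10), from 13.29 to 13.90 (median 13.58) in WT to 10.71 to 10.90 (median 10.79) in KO. The mean over the 11 electron carriers was 12.88 to 13.08 on the WT arrays and 12.67 to 12.84 on the KO arrays, without overlap. It includes the fall of Gpd2. A mean without Gpd2 was not taken, so this one does not describe the other carriers. The largest difference of the 89 nuclear members in this comparison was 0.30.

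Of 23 measured regulators of mitochondrial genes, 8 were higher and 1 lower in total ChREBP WT against ChREBPβ WT (median 0.11). The shares of all genes were 13.5% and 8.51% there, and 5.62% and 3.63% in total ChREBP KO. The coactivator Ppargc1a read 8.38 to 9.39 (median 8.88) in ChREBPβ WT and 9.83 to 10.30 (median 9.96) in total ChREBP WT, a rise of 1.13 ± 0.148 (adjusted p = 3.04e-05). Ppargc1b rose by 0.57, Esrra, the ERRα receptor, by 0.28, and Tfam, which packs and transcribes mitochondrial DNA, by 0.19 (adjusted p = 0.00304, 0.000491 and 0.0082). In total ChREBP KO 1 of the 23 rose (Yy1, 0.22, adjusted p = 0.0404) and 2 fell. Those were Ppargc1b, by 0.63, and Esrrb, by 0.89 (adjusted p = 0.00565 and 0.000573). Ppargc1a differed by -0.17 (adjusted p = 0.669).

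**Figure D4:**
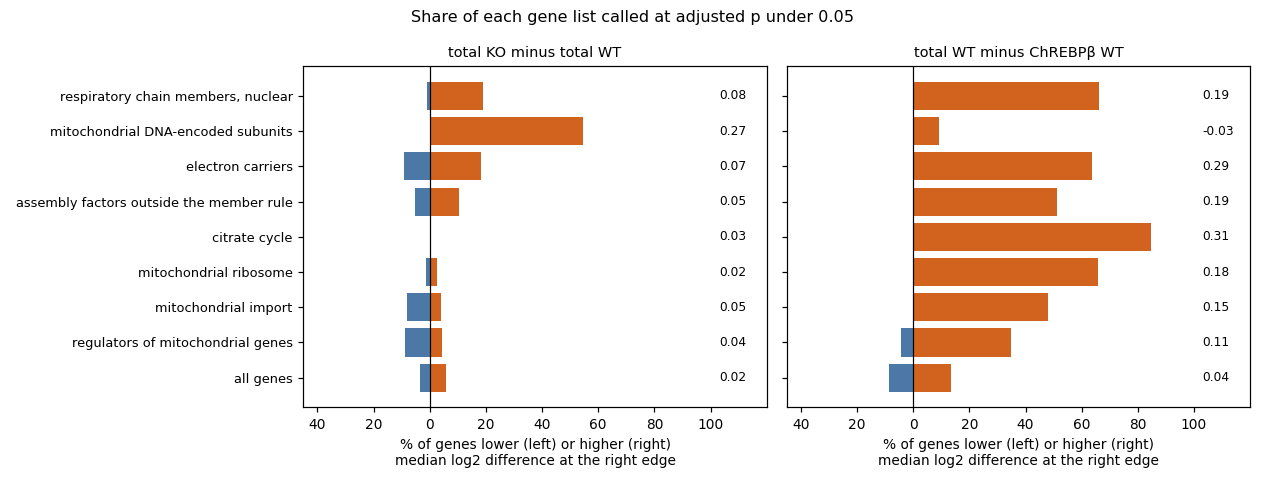
Percent of the genes of each mitochondrial list that were higher (right of 0) or lower (left of 0) at an adjusted p under 0.05 (x axis), for total ChREBP KO minus total ChREBP WT and total ChREBP WT minus ChREBPβ WT, with the median log2 difference of the list at the right edge. Of the mitochondrial DNA-encoded subunits 54.5% were higher in the first comparison and 9.09% in the second, and of the nuclear members 19.1% and 66.3%.

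The motifs of the promoters were set beside the calls. In the comparison of wild types 49 of the 73 members with a window were higher (67.1%). The count was 10 of 14 for those with GCGCATG, 11 of 17 with the ETS motif, 7 of 11 with the YY1 motif, 3 of 4 with the ERR motif and 4 of 7 with the E-box. With both isoforms lost, 14 of the 73 rose (19.2%), among them 3 of 14, 4 of 17, 1 of 11, 1 of 4 and 0 of 7 in the same order. Ndufb8, Sdhb and Atp5k, printed above, are examples of those that rose, and Ndufa6, which fell, holds the same letters GCGCATG as Ndufb8 and Sdhb.

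Of 34 members with several probes, all probes had the same sign in 25 in the comparison of wild types and in 20 in total ChREBP KO minus total ChREBP WT. Of 21 members whose brightest probe was called between the wild types, 17 had another called probe, and Uqcrb had the opposed probes given above.

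Markers of some cell types differed in 1 or both of these comparisons. Of all genes, 13.5% were higher and 8.51% lower between the wild types, and 5.62% and 3.63% in total ChREBP KO. All 6 liver markers were lower in the total ChREBP wild types, with a median difference of -5.06. With both isoforms lost, 1 of the 6 was lower, with a median of -2.54. Of the measured kidney markers 2 of 4 were lower in total ChREBP WT, of the skeletal muscle markers 4 of 8 were higher, of the brown or beige markers 5 of 9 were higher, and of the epididymis and vas deferens markers 1 of 2 was higher. The brown or beige genes that were higher include Cox7a1, Cox8b and Ppargc1a, which are also reported in other paragraphs and are not separate results. Of 10 adipocyte genes, 2 were higher and 1 lower between the wild types, with a median of 0.02. In total ChREBP KO 3 of the 10 were higher (Plin1, Cidec and Lpl), 9 of the 10 differences were above 0 and the median was 0.20, against 0.08 for the members. Of the brown or beige markers 1 rose and 1 fell there (Dio2 and Kcnk3), with a median of -0.32, and 0 of the 8 skeletal muscle markers were called by limma, with 1 at an unadjusted p under 0.05. Markers of macrophages, endothelium, mesothelium, progenitors, lymphocytes and testis gave 0 calls by limma in both comparisons, with 0 to 3 of a list at an unadjusted p under 0.05.

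Liver means overlapped little between the wild types. Total ChREBP WT replicate 2, with the most liver signal of its group (13.77), was the 1 array above the lowest ChREBPβ WT array (13.05). Its member mean was 14.51. The same array had the highest mean of the epididymis and vas deferens markers, 13.58 against 9.06 or less on all other arrays, and a testis marker mean of 9.60. Without it 56 members were called between the wild types, with a median of 0.21. The part of muscle, brown fat and adipocyte content in the member differences was not tested.

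**Figure D5:**
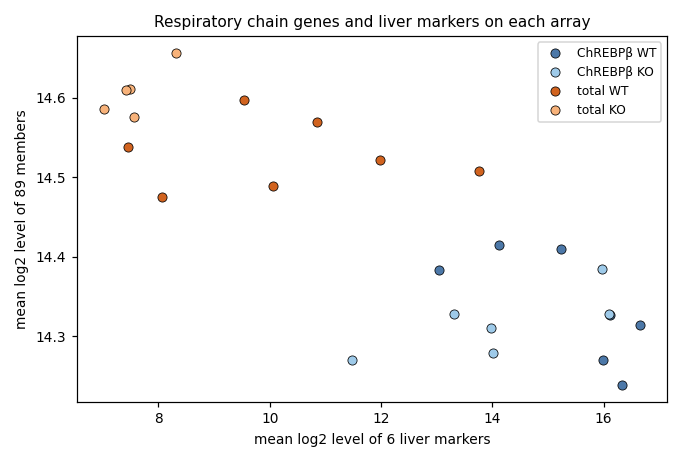
Mean log2 level of the 89 members (y axis) against the mean log2 level of 6 liver markers (x axis), 1 point per array, coloured by group. All 12 arrays of the total ChREBP line lie above all 13 arrays of the ChREBPβ line on the y axis, and their liver means overlap between 11.48 and 13.77.

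The forms left out by the naming rule were read for comparison. Cox7a1 read 10.39 to 11.35 (median 10.80) in ChREBPβ WT and 11.06 to 11.46 (median 11.33) in total ChREBP WT, a rise of 0.46 ± 0.125 (adjusted p = 0.0107). Cox8b read 11.00 to 12.43 (median 11.81) and 12.35 to 13.80 (median 13.12), a rise of 1.31 ± 0.275 (adjusted p = 0.00178). Both are forms of heat-producing fat and muscle, and both overlapped between the groups. In total ChREBP KO they differed by -0.25 and 0.67 and were not called (adjusted p = 0.347 and 0.208).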

How the data were processed

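Perigonadal fat RNA of 25 mice was measured on single-colour arrays, 1 array per mouse. Per the labels, the authors labelled cRNA with Cy3 and read each spot with Agilent Feature Extraction 10.10.1.1, and the deposited scanner files hold its intensity values. The series table deposited by the authors holds log2 values of 40561 probes after flag filtering, quantile normalisation and a median over replicated probes. Each of its columns correlated with the log2 scanner intensity of its array at 0.9998 or above. Quantile normalisation gives every array the same distribution.

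The table was analysed as deposited with limma 3.58.1 in R 4.3.3. The 4 groups and wash batch were fitted on all 25 arrays (18 residual and 2.51 prior degrees of freedom), with Benjamini-Hochberg adjustment over all probes and calls at an adjusted p under 0.05. Group differences are log2 values with standard errors. Replicates were separate mice. Replicate numbers were not used to pair the samples. The sample titles do not say whether same-numbered mice were paired, and the deviations of same-numbered arrays correlated at -0.45 to 0.41, which cannot settle it. Members and lists were chosen with earlier results of these data known. Genes were named as core subunits, as tissue forms, as up to 3 called members with the largest difference per class and comparison (the 3 smallest p where none was called), and where called probes disagreed. Of the counted members, 1 is not reported here by itself. The fit was tested on simulated data, 40561 probes with 200 of them shifted by a log2 difference of 1. For ChREBPβ KO 87.5% were recovered and for total ChREBP KO 90%, and 7.41% and 3.23% of calls were false. The largest member difference was 0.52, so this does not show how often shifts as small as theirs would be found. The simulated noise was also drawn for each probe by itself, without the RNA of other organs that probes of 1 array share. Alternatives covered the scanner values (the study's steps repeated, 75th percentile, normexp with an offset of 50), probe filters, batch terms, weights, probe averaging and leaving out each array. RefSeq annotation of GRCm38.p6 named 90 members and gave the promoters. Probe positions are those of the array design in mm9.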

Additional observations from a re-analysis of the deposited data

Results flagged for a closer look

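Within groups, the values of each named member were searched for an array far from the rest, by comparing the gap to its nearest neighbour with the range of the group. Of 244 groups of 5 to 7 arrays, 17 held such an array, where chance gives about 1 in 20.

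Total ChREBP KO replicate 2 was the highest of its group for 3 subunits, Ndufs3 at 15.31, Ndufv2 at 14.83 and Uqcrc2 at 15.11. Total ChREBP WT replicate 2 was the lowest for Atp5c1 at 16.17, Ndufa2 at 15.55 and Ndufa4 at 14.95. ChREBPβ KO replicate 3 was the highest for Atp5e at 16.06 and Atp5k at 16.09 and the lowest for Ndufaf7 at 11.68.

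Single arrays stood apart for the other 8 values. In total ChREBP KO these were Atp5c1 in replicate 1, lowest at 16.54, and Cox7a2 in replicate 7, highest at 15.90. In total ChREBP WT they were Cox4i1 in replicate 7, lowest at 16.65, Ndufs8 in replicate 4, highest at 14.79, and Uqcrc2 in replicate 5, lowest at 14.89. In ChREBPβ KO they were Cox8a in replicate 6, highest at 17.48, and Ndufs7 in replicate 8, highest at 15.24. In ChREBPβ WT it was Uqcrb in replicate 6, lowest at 15.13.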

How the results depend on the processing

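ChREBPβ KO minus ChREBPβ WT gave 0 called members under every alternative run, and leaving out each array in turn moved its median between -0.03 and 0.00. For total ChREBP KO minus total ChREBP WT, with 18 members called in the deposited table, the count was 3 under 75th percentile scaling of the processed signal, 11 with no filter on dim probes, 28 with array quality weights, 10 with only the 2 groups of the comparison, 6 at an adjusted p under 0.01, and 4 with the liver covariate and 3 on the arrays low in other organ markers, the last 2 chosen after seeing the data. The counts in that comparison ranged from 11 to 22 and its median from 0.07 to 0.10 when each array was left out, and the median was 0.013 under the 75th percentile scaling. With the replicate number as a replicate block the count was 6, and whether the numbers pair the samples is not known. For the difference of the effects, with 0 calls, normexp gave 1, array quality weights 4, a robust trended prior 2 and the mean over probes 2. Leaving out arrays gave 0 to 1 calls, with 1 without ChREBPβ KO replicate 3, ChREBPβ WT replicate 2 or ChREBPβ WT replicate 7, and a median of 0.09 to 0.13, and the 75th percentile scaling a median of 0.041. For total ChREBP WT minus ChREBPβ WT, with 59 calls, the count was 22 with the liver covariate and 13 on the arrays low in other organ markers, 52 to 60 (median 0.18 to 0.22) when each array was left out, and 55 with the replicate block. Its median was 0.34 under the 75th percentile scaling, which also turned Ndufa2 to 0.17 and Ndufv3 to 0.18 from values that were not called. The causes of these changes were not tested. In the restricted fits, the smaller number of arrays cannot be told apart from the choice of arrays.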
